A study of Trametes cinnabarina with 16 samples.

Results

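In Pycnoporus cinnabarinus, a basidiomycete that causes white rot of wood, 304 genes were chosen as abundant and varying little in 9 of the 10 libraries without plant material. In the other, the third maltose library, their median was 24.1 TPM. The 304 genes were chosen from 27990 genes of an assembled transcriptome by their level in TPM, a length-corrected share of each library's transcripts, with the same total in every library. A gene was taken if it had at least 150 TPM in each of 9 libraries (all 3 controls, all 3 cellobiose libraries, the glucose library and the first and second maltose libraries), if the highest of these 9 values was at most 2 times the lowest, and if its median was at least 50 TPM in poplar and in switchgrass. Those values made the choice, so the levels in these libraries, and every difference from control, are given as descriptions without a test.

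The 16 libraries came from whole cultures of strain PB94 on semi-minimal medium, in 6 groups that differ in the energy substrate: none (control, 3 libraries), cellobiose (3), glucose (1), maltose (3), poplar (3) and switchgrass (3). Control and soluble-sugar libraries were made from poly-A RNA, whereas poplar and switchgrass libraries were made after removal of ribosomal RNA, so that plant substrate and preparation cannot be told apart in any comparison with control. The labels do not say whether replicates were separate cultures, and the spread between them may be technical. In RNA from a whole culture, fewer cells using a gene and less RNA of it per cell cannot be told apart either.

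White-rot fungi break down lignin as well as cellulose in wood, and they take up sugars such as glucose, cellobiose (a disaccharide from cellulose) and maltose (a disaccharide from starch). Beside the enzymes made for one substrate, a growing hypha needs proteins for translation, energy metabolism, the cytoskeleton and protein turnover whatever it feeds on. Genes whose transcripts hold a steady share under many conditions are used as references in quantitative PCR, and a share of a fixed total falls when a few other transcripts become very abundant. None of the assembly identifiers matched the 10441 reference genes (0 matches), so no gene here has a name, a role or a sequence, and genes are grouped by level and by pattern.

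Depth is unknown, because TPM keeps none. In the 9 libraries of the rule, 6.57% to 12.7% of TPM lay in the 10 leading genes. These took 25.6% to 75.3% in the 6 plant libraries (most in the second poplar library, then 50.8% in the third switchgrass library) and 83.7% in the third maltose library. Group names follow the table named in the rule; a second deposited table holds the same 16 columns of values under other names (0 of 16 names kept), and under those names the rule found 0 genes. The likeness of libraries was measured over the 304 genes as the median absolute log2 ratio after removal of each pair's median ratio. The 2-fold limit of the rule bounds this distance among its 9 libraries but not among plant libraries. Values over tested genes with at least 10 TPM in both libraries are therefore given in brackets for some pairs. Between control libraries the distance was 0.0721 to 0.0866 (0.146 to 0.171). Between the glucose and the first maltose library it was 0.0778 (0.160), and between the first and second maltose libraries 0.125 (0.170). The second table calls these 3 libraries maltose. In poplar the first and second libraries differed by 0.155 (0.194), and the third differed from them by 0.380 (0.570) and 0.371 (0.661). Switchgrass libraries differed from each other by 0.279 to 0.405. Pairs across the plant substrates differed by 0.238 to 0.432, and the third poplar library was nearer to the third (0.294) and the first (0.322) switchgrass library than to either other poplar library.

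The rule left 304 genes in 3 steps. At least 150 TPM in all 9 libraries was reached by 654 genes, and 418 of them stayed within the 2-fold limit. Of these 418 genes, 114 had a median under 50 TPM in poplar, switchgrass or both. The other way round, 150 genes met both floors but passed the 2-fold limit. All 304 passed the filter used for testing, at least 1 TPM in at least 3 libraries, and they were 1.27% of the 23981 genes tested.

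Values close to the limits were continuous. Just inside the floor of 150 TPM were TR13833__c1_g1 (lowest value 150.4) and TR118__c0_g1 (151), and just outside were TR2411__c0_g1 (149) and TR9399__c0_g1 (149). At the 2-fold limit TR2492__c0_g1 had a ratio of 1.995 and TR9962__c0_g1 of 1.993, against 2.006 for TR5757__c0_g1 and 2.02 for TR7795__c0_g1. At the poplar floor TR868__c0_g1 had a median of 50 TPM and TR19037__c0_g1 of 50.1, against 49.2 for TR9656__c0_g1 and 48.6 for TR5444__c0_g1. In switchgrass the lowest medians kept were those of TR7135__c0_g1 (54.9 TPM) and TR9416__c0_g1 (58.6), and the nearest left out were TR3508__c0_g1 (48.6) and TR12558__c0_g4 (44.2).

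Together the 304 genes held 19.7% to 24.7% of all TPM in the 9 libraries of the rule, lowest in the second cellobiose library and highest in the glucose library. Their mean over the 9 libraries ran from 186 to 20183 TPM with a median of 498, and 53 genes were above 1000 TPM. The ratio of the highest to the lowest library had a median of 1.63 and ran from 1.16 to 1.995. It was at most 1.5 in 87 genes and above 1.9 in 26. The rule itself set the upper limit of this ratio, so its spread is given without a reading.

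The most abundant of them, TR3520__c0_g1, stood far above the rest. It was at 17935, 15688 and 19025 TPM in the control libraries, at 27087, 21868 and 24190 in cellobiose, at 18205 in glucose and at 18848 and 18803 in the first and second maltose libraries. Cellobiose was above the other libraries without overlap. On plant material this gene was at 2487, 743 and 113 TPM in poplar and at 72.1, 334 and 1308 in switchgrass, and in the third maltose library at 58.4. All 7 of these values were below every control library, and the plant libraries of each group differed from one another by more than 10-fold. Its highest-over-lowest ratio over the 15 libraries other than the third maltose library was 376, the widest of the 304.

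Next in level was TR153__c5_g3, which varied far less. Its values were 4481, 4526 and 4652 TPM in control, 4471, 5478 and 5419 in cellobiose, 5308 in glucose and 4730 and 4285 in maltose. In poplar it was at 1473, 513 and 2109 TPM, and in switchgrass at 2056, 2062 and 1297. The plant values were again all below control, with the lowest in the second poplar library.

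TR9831__c0_g1 was at 3451, 3613 and 3750 TPM in control, at 2948, 2769 and 3158 in cellobiose and at 3035 in glucose. It stood at 886, 608 and 2786 TPM in poplar and at 2707, 1604 and 955 in switchgrass. The third poplar library came within the range of the cellobiose libraries, and every plant library was below control. The other 7 of the 10 most abundant genes had control means from 2249 TPM in TR18224__c0_g2 to 2949 in TR4379__c0_g1. Between them lay TR12558__c1_g2 (2937), TR13195__c1_g1 (2760), TR17251__c0_g1 (2631), TR8937__c0_g1 (2470.4) and TR153__c4_g2 (2397). All 7 were below every control library in all 6 plant libraries, with poplar means of 0.103 to 0.193 times and switchgrass means of 0.186 to 0.449 times the control mean.

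**Figure D1:**
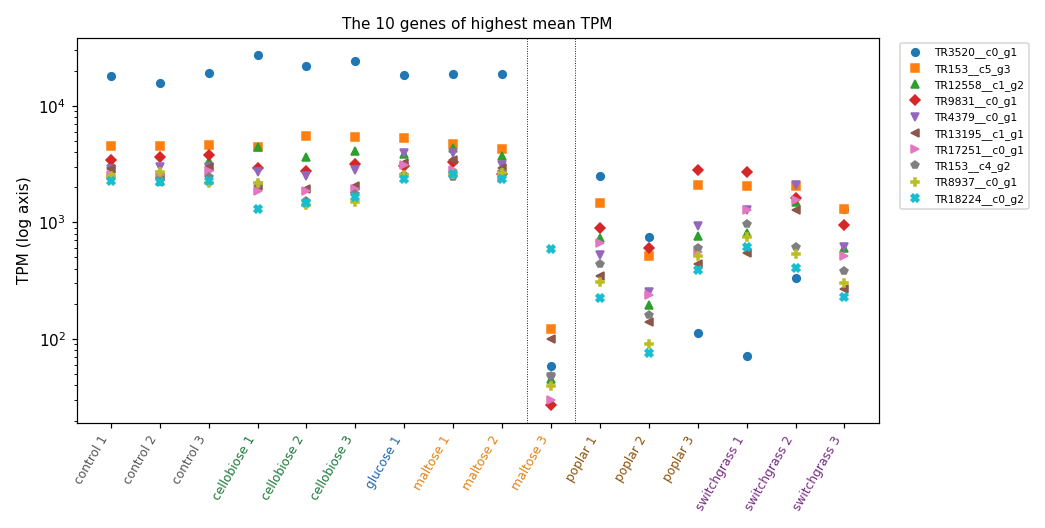
TPM on a log axis of the 10 genes of highest mean level in each of the 16 libraries, one symbol per gene; dotted lines set off the third maltose library. The symbols form level rows in the 9 libraries on the left and spread downward in the third maltose and the plant libraries, where TR3520__c0_g1 falls from the top of the order (18205 TPM in glucose) to 113 TPM in the third poplar library.

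Where the lowest and the highest value lay within the 2-fold limit is given as a description. The rule used all these libraries, and the groups hold unequal numbers of them. The lowest of the 9 values was in a cellobiose library in 185 of the 304 genes and in a maltose library in 83, and the highest was in the glucose library in 100. The cellobiose mean was below the control mean in 217 genes, with a median of 0.857 times control. In the cellobiose libraries the median over all genes with a control mean of at least 1 TPM was 0.948, 0.898 and 0.904 times control. All cellobiose libraries were below all control libraries in 142 of the 304 genes, against 16.3% of all genes tested, and above them in 40, against 15.7%. The rule used both groups, so nothing is read from these shares. TR18224__c0_g2 was one of the 142, at 2253, 2213 and 2281 TPM in control and at 1305, 1478 and 1642 in cellobiose. In contrast TR4193__c0_g1 was at 364, 344 and 370 TPM in control and at 466, 476 and 545 in cellobiose, again without overlap. After the scaling described further on, 138 genes were below (15.5%) and 48 above (18.0%).

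On plant substrates the genes did not hold their level, which goes against the working name of this set as steady in every culture. Their share of TPM was 5.05%, 2.10% and 9.66% in poplar, and 10.03%, 9.47% and 4.92% in switchgrass. The median gene was at 0.215, 0.0883 and 0.360 times its control mean in poplar and at 0.407, 0.391 and 0.195 times in switchgrass. Over all 18042 genes with a control mean of at least 1 TPM the medians were 0.314, 0.117 and 0.588 in poplar and 0.441, 0.546 and 0.238 in switchgrass. Genes that met the same floors but passed the 2-fold limit had medians of 0.232, 0.0895 and 0.325 in poplar. In switchgrass theirs were 0.419, 0.452 and 0.259. Genes that missed a plant floor, chosen for low plant values, were at 0.0554 to 0.251. The lower level on plants was thus not particular to the steady genes. Within each substrate all these medians were lowest in the second poplar and the third switchgrass library. These were the plant libraries with the most TPM in 10 genes. The part of that concentration, and of the other preparation, in the lower values was not tested.

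All poplar libraries were below all control libraries in 258 of the 304 genes (39.6% of all genes tested), and all switchgrass libraries in 240 (37.4%). The rule set a floor on both sides of these comparisons, so the shares are given without a reading. Above all control libraries in all poplar libraries was only TR8433__c1_g1 (6.10% of all genes tested). In all switchgrass libraries it was joined by TR15815__c0_g1 and TR1590__c1_g1 (8.16%). These small groups were chosen after their values were seen. Over the 15 libraries other than the third maltose library no gene of the 304 stayed within 2-fold or within 3-fold (0 genes), and the median highest-over-lowest ratio was 14.0.

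Part of this distance was common to the whole library. With median-of-ratios scaling, which divides each library by its median ratio over the 9213 genes above 0 in all 16 libraries, the median gene was at 0.695, 0.676 and 0.588 times control in poplar, and at 0.742, 0.671 and 0.698 times in switchgrass. The same medians over all genes with a control mean of at least 1 TPM before scaling were 1.015, 0.894 and 0.962 in poplar and 0.803, 0.938 and 0.853 in switchgrass. After scaling the medians of this set thus lay close together in the plant libraries, at 0.59 to 0.74 times control. Genes that met the same floors but passed the 2-fold limit were then at 0.750, 0.687 and 0.531 in poplar. In switchgrass they were at 0.763, 0.775 and 0.923. Genes that missed a plant floor, chosen for low plant values, were at 0.376 to 0.467. All these genes were chosen for high control values, and a scaled median below control was not particular to this set. Genes of this set below all controls then numbered 178 in poplar (20.3% of all genes tested) and 167 in switchgrass (20.9%). Those above all controls numbered 47 (28.0%) and 54 (21.3%). Over the 15 libraries 39 genes of this set stayed within 2-fold and 137 within 3-fold, with a median ratio of 3.25.

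**Figure D2:**
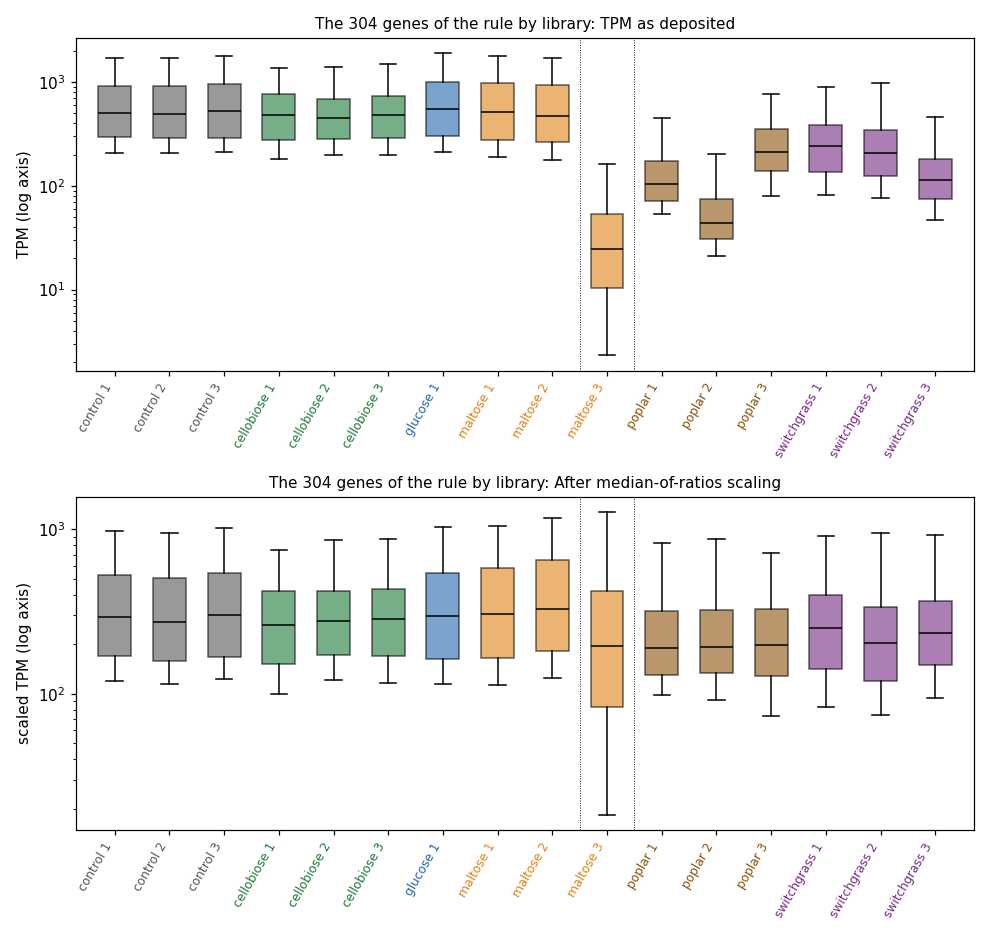
Levels of the 304 genes in each library, above in TPM as deposited and below after median-of-ratios scaling, both on log axes; boxes span the quartiles with the median as a line, whiskers reach the 5th and 95th percentiles, and 4 genes listed at 0 in the third maltose library are not drawn there. As deposited, the medians of the plant libraries run from 44.1 to 243 TPM against 452 to 546 in the 9 libraries of the rule, while the scaled medians run from 189 to 251 against 263 to 327.

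**Figure D3:**
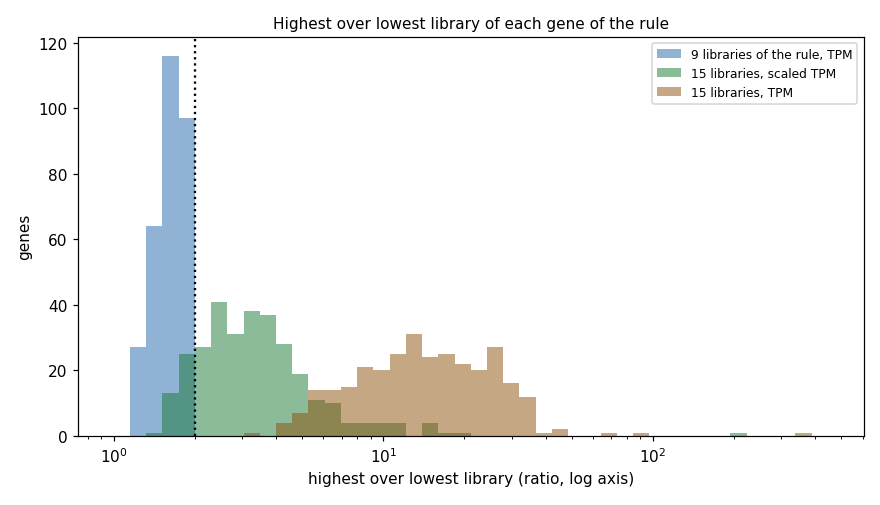
Number of genes by the ratio of their highest to their lowest library, on a log axis, over the 9 libraries of the rule, over 15 libraries after scaling and over 15 libraries in TPM; the dotted line marks the 2-fold limit of the rule. The 3 distributions have medians of 1.63, 3.25 and 14.0.

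The plant libraries among themselves showed how far scaling brings these genes together. In TPM the highest plant library was a median of 6.39 times the lowest, and in no gene at most 2 times (0 of 304). After scaling the median was 1.91, and 178 genes were within 2-fold. The 150 genes that met the same floors but passed the 2-fold limit were not matched to the 304 in level. Their medians were 6.86 in TPM and 3.03 after scaling. For the 114 that missed a plant floor they were 6.43 and 2.08. No test was made of these differences, because genes of one library are not independent replicates.

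TR5376__c0_g1 was the most even gene of the 304 once libraries were scaled. Its control values were 358, 344 and 395 TPM, its cellobiose values 377, 372 and 386, with 392 in glucose and 366 and 330.4 in maltose. In poplar it was at 104, 40.9 and 276 TPM and in switchgrass at 219, 228 and 99.4, all below control. Scaled, its means were 208 ± 19.1 (SD, n = 3) in control, 221 ± 11.5 in cellobiose, 208 ± 42.2 in poplar and 217 ± 13.2 in switchgrass, groups whose ranges overlap. Its ratio over 15 libraries was 9.65 in TPM and 1.44 after scaling, the lowest scaled ratio of the set, as was learned after the values were seen.

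Of the 5 genes with the smallest ratio over the 9 libraries, 3 shared a pattern on plants. TR2740__c0_g1, with the smallest ratio of all (1.16), was at 224 ± 10.4 TPM (SD over the 9 libraries). In poplar it was at 52.9, 20.6 and 657 TPM and in switchgrass at 171, 143 and 91.0. The third poplar library was above every control library, which lay between 219.5 and 235, while its other 5 plant libraries were below them.

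TR3292__c0_g1 (277 ± 14.6 TPM over the 9 libraries) had 77.7, 31.0 and 768 TPM in poplar and 242, 163 and 115 in switchgrass. TR1403__c0_g1 (268 ± 15.1 TPM) had 62.6, 28.8 and 709 TPM in poplar and 200.5, 122 and 121 in switchgrass. As in TR2740__c0_g1, the third poplar library was the one above control, and scaling did not remove the contrast: the ratios over 15 libraries were still 6.81 in TR2740__c0_g1, 5.29 in TR3292__c0_g1 and 5.73 in TR1403__c0_g1. In the third poplar library 40 of the 304 genes were above their control mean (40.2% of all genes tested), against 6 in the first (28.5%) and 2 in the second (11.5%). In switchgrass 39 (29.2%), 35 (36.2%) and 7 (22.7%) genes were above it. The last of the 5, beside TR5376__c0_g1, was TR8653__c0_g1, which stood at 646 ± 51.6 TPM over the 9 libraries and had no such peak, with 80.4, 29.0 and 171 TPM in poplar and 209, 208 and 93.5 in switchgrass.

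**Figure D4:**
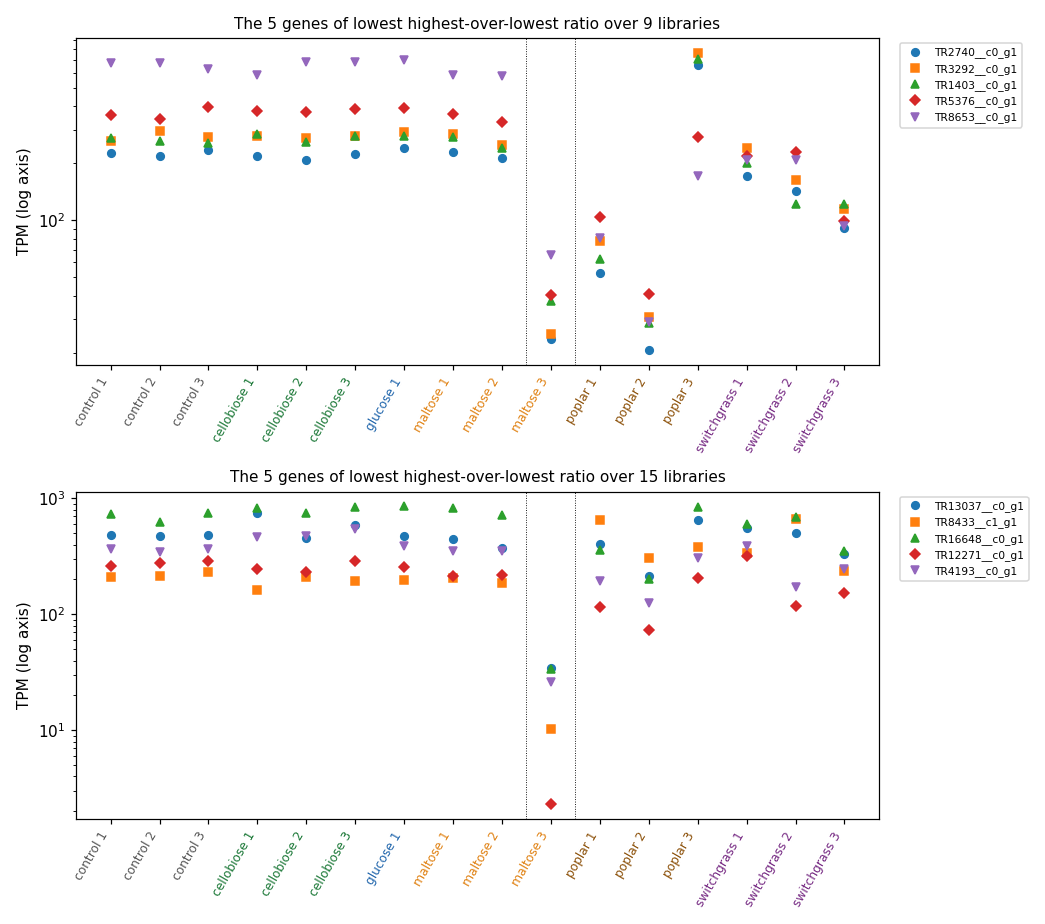
TPM on log axes in each library of the 5 genes with the lowest highest-over-lowest ratio over the 9 libraries of the rule (above) and over 15 libraries (below). In the upper panel 3 genes reach 657 to 768 TPM in the third poplar library; in the lower panel the plant libraries stay within 4.36-fold of the others, and only the third maltose library falls away.

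The genes with the smallest ratio over 15 libraries were others. TR13037__c0_g1 had a ratio of 3.48, with 484, 471 and 482 TPM in control, 746, 456 and 587 in cellobiose, 405, 214.5 and 651 in poplar and 556, 499 and 333 in switchgrass. Its plant and control values overlapped in TPM. After scaling they did not, with 272 ± 11.3 in control, 760 ± 165 in poplar and 579 ± 95.3 in switchgrass (SD, n = 3). TR16648__c0_g1 (ratio 4.19), TR12271__c0_g1 (4.33) and TR4193__c0_g1 (4.36) had poplar means of 0.667, 0.480 and 0.583 times control in TPM and of 1.94, 1.55 and 1.94 times after scaling. For these genes the direction against control thus depended on the scaling.

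TR8433__c1_g1 was higher on plant material with either scale. Its control values were 212, 212 and 231 TPM, its poplar values 657, 306 and 378, and its switchgrass values 336, 659 and 238. Every plant library was above every control library, by the narrowest margin in the third switchgrass library. The ratio of means to control was 2.05 in poplar and 1.88 in switchgrass, and 7.75 and 3.95 after scaling. TR15815__c0_g1 was at 273, 316 and 269 TPM in control, at 169, 75.8 and 1452 in poplar and at 1308, 972 and 408 in switchgrass, so that its switchgrass values, but not its poplar values, were separate from control. TR9393__c0_g1 was highest in the first poplar library, with 918, 394 and 251 TPM in poplar, 291, 252 and 175 in switchgrass and 279, 242 and 296 in control.

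Switchgrass and poplar have the same preparation, and the rule set no limit on their difference. It did set a floor of 50 TPM on both medians, which left out genes low on one substrate and high on the other, so the counts of calls and directions among the 304 genes are given without a reading. By limma on log2(TPM + 1), with p-values adjusted over all 23981 genes, none of the 304 genes passed the test (0 calls at an adjusted p under 0.05; their smallest adjusted p was 1.00), against 0.0250% of all genes tested. An unadjusted p under 0.05 in this limma fit was found in 1 of the 304 genes and in 1051 of all genes tested. The log2 fold change of switchgrass over poplar was above 0 in 293 of the 304 genes, with a median of 0.75, and above 0 in 64.6% of all genes tested, with a median of 0.27. The median standard error (SE) of a gene was 1.09 in this fit, and a missing call does not show equal levels. Without the third maltose library 30 of the 304 genes had an unadjusted p under 0.05 and the smallest adjusted p by limma was 0.162, and with scaling these were 14 and 0.0578, again with 0 calls. Without the second poplar library the median of the 304 genes was 0.18 (all genes -0.02), with 209 above 0, and with scaling it was 0.14 (all genes -0.03), with 192 above 0. For these alternative fits the shares of all genes above 0 or at an unadjusted p under 0.05 were not taken. Weights per library gave 10 calls among the 304 genes and 801 among all genes by the gene-by-gene method, and 93 and 4124 by REML, whose fit did not converge; the first was chosen after the counts of the second were seen. By either method TR16787__c1_g1, TR13878__c0_g1, TR8665__c0_g1, TR1590__c1_g1, TR9393__c0_g1 and TR3520__c0_g1 were called, the last with a log2 fold change of -3.46 by the gene-by-gene method (limma adjusted p = 0.0456) against -0.90 with equal weights. Scaling without the third maltose library, added after the data were seen, gave 2 and 271.

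The 4 largest log2 fold changes toward switchgrass were those of TR16787__c1_g1, TR13878__c0_g1, TR8665__c0_g1 and TR1590__c1_g1. TR16787__c1_g1 had 709, 384 and 149.8 TPM on switchgrass, against 54.8, 23.8 and 195 on poplar, a log2 fold change of 2.42 ± 0.98 (SE). Its ranges overlapped, because the third poplar library was above the third switchgrass library. TR13878__c0_g1 had 714, 324 and 189 TPM on switchgrass, against 67.2, 25.7 and 262 on poplar (2.18 ± 1.09). TR8665__c0_g1 was highest in the second switchgrass library, with 174, 847 and 102 TPM on switchgrass, against 56.3, 23.7 and 143 on poplar (2.07 ± 1.05). TR1590__c1_g1 had 1328, 875 and 331 TPM on switchgrass, against 130.3, 53.6 and 1111 on poplar (1.87 ± 1.17). In all 4 the third poplar library lay inside the switchgrass range, and the first and second lay below it. The values moved with single libraries. Without the second poplar library they were 1.72 in TR16787__c1_g1, 1.40 in TR13878__c0_g1, 1.45 in TR8665__c0_g1 and 0.93 in TR1590__c1_g1, and without the third 3.22, 3.05, 2.72 and 3.10. Without the second switchgrass library TR8665__c0_g1 was at 1.19.

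The 4 most negative values, none larger than its standard error, were -0.94 ± 0.96 in TR9393__c0_g1, -0.90 ± 1.79 in TR3520__c0_g1, -0.65 ± 1.18 in TR11915__c1_g1 and -0.22 ± 1.05 in TR8422__c0_g1. TR11915__c1_g1 had 69.6, 45.5 and 68.0 TPM on switchgrass, against 115, 39.3 and 187 on poplar, and TR8422__c0_g1 had 199.5, 122.5 and 128, against 180.2, 73.4 and 371; in both the ranges overlapped. Separate ranges were found in 5 genes, with all switchgrass libraries above all poplar libraries (2.83% of all genes tested) and none the other way round (0 genes; 1.89%). These 5, chosen after their values were seen, were TR11052__c0_g1, TR14382__c0_g1, TR17562__c0_g1, TR78__c3_g1 and TR9612__c1_g1. TR78__c3_g1 had the widest gap, with 334, 346 and 239 TPM on switchgrass, against 107, 53.0 and 128 on poplar. With scaling 42 of the 304 genes were above (3.70% of all genes tested) and 9 below (4.85%).

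The third maltose library was not used by the rule and stood apart. The 304 genes held 1.5% of its TPM, against 23.6% and 22.6% in the first and second maltose libraries. Their median was 24.1 TPM, or 0.0431 times the control mean, against 0.0266 over all genes with a control mean of at least 1 TPM. Within 2-fold of their control mean were 8 genes, and above it were 2 (6.23% of all genes tested). Of these 2, TR11717__c0_g1 was at 1003 TPM against 565, 456 and 484 in control, and TR18545__c7_g1 at 360 against 232, 219.5 and 165. The full rule, with this library required as well, was met by TR14413__c0_g1 and TR9552__c0_g2. TR14413__c0_g1 was at 248 TPM there and at 283 and 263 in the other maltose libraries, and TR9552__c0_g2 at 662 and at 698 and 805. After scaling the median of the 304 genes in the third maltose library was 0.601 times control, and 138 genes were within 2-fold. Shares of all genes within 2-fold were not taken, so the counts of 8 and 138 are given without a reading.

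Values of 0 occurred in this library alone, in 4 genes. They were TR8945__c0_g1, TR14268__c0_g1, TR15815__c0_g1 and TR16894__c0_g1, the first of which was at 2162 and 2074 TPM in the other maltose libraries. TR14268__c0_g1 was at 1049 and 875 TPM there, and TR16894__c0_g1 at 763 and 752. A value of 0 in TPM can be a failed estimate, and no fold is given against it. TR16894__c0_g1 was also low on plants, with 136, 36.8 and 96.2 TPM in poplar and 114, 85.9 and 88.8 in switchgrass against 1057, 780 and 924 in control.

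The rule used sums over isoforms, the transcripts assembled for one gene, and not their shares. A single isoform was assembled for 265 of the 304 genes (87.2%), against 74.9% of the genes tested, 90.7% of the 150 genes past the 2-fold limit and 86.8% of the 114 below a plant floor. Among the 39 genes with more isoforms (up to 12), the share of the leading isoform moved over the 9 libraries by a median of 9.36 percentage points and by under 10 points in 21. The first cellobiose library often set one end of this range. It had the lowest share in TR12585__c0_g1 (48.3%) and TR18224__c0_g2 (31.3%) and the highest in TR9765__c0_g1 (88.4%), but neither end in TR153__c5_g3. These examples were picked after their values were seen. That library listed 34.8% of transcripts at 0, against 22.8% and 24.8% in the other cellobiose libraries. Isoforms share sequence, so their shares are estimates by the authors' software.

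TR17800__c1_g3 had the widest movement, although its gene level met the rule. Its leading isoform, of 3, held 74.2%, 75.5% and 64.8% of the gene's TPM in control, 44.6%, 60.3% and 63.9% in cellobiose, 58.6% in glucose and 66.3% and 67.4% in maltose. In poplar the isoform held 0%, 4.46% and 0%, and in switchgrass 0%, 6.03% and 13.8%. The plant libraries were below all others without overlap, and the first cellobiose library was the lowest of the rest. TR12574__c0_g1, with 2 isoforms, had its leading one at 90.3%, 91.4% and 92.9% in control and at 69.7%, 84.2% and 85.8% in cellobiose. On plants the share was 21.3%, 40.6% and 29.9% in poplar and 33.4%, 76.5% and 42.1% in switchgrass, below control throughout.

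In TR153__c5_g3, with 12 isoforms, cellobiose was the lowest of the cultures without plant material. The leading isoform held 33.6%, 33.3% and 31.1% in control and 21.3%, 14.7% and 15.98% in cellobiose, with 29.9% in glucose and 33.6% and 37.8% in the first and second maltose libraries. On plants it held 12.3%, 12.0% and 20.2% in poplar and 28.0%, 17.2% and 14.2% in switchgrass, in or below the cellobiose range in all but the first switchgrass library. In TR18231__c0_g1, with 7, the leading isoform was at 14.95% in the first cellobiose library, at 29.8% and 33.1% in the others of that group, and at 36.6%, 39.4% and 41.2% in control. In both genes cellobiose was below control without overlap, while their gene sums stayed within the 2-fold limit.

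**Figure D5:**
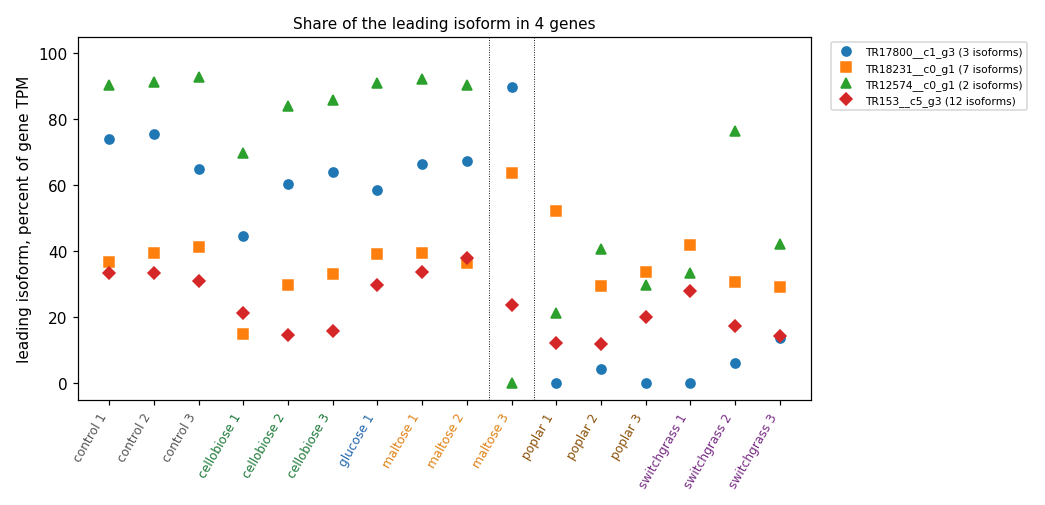
Share of the leading isoform in percent of the gene's TPM, in each library, for the 4 genes with the largest movement over the 9 libraries of the rule; one symbol per gene. TR17800__c1_g3 lies between 44.6% and 75.5% in those 9 libraries and at 13.8% or less in the 6 plant libraries.

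Some of the genes carry the same TR number. The assembler is not named in the sources used here, so what the number stands for was not checked. If such genes share reads, their sums depend on how reads were divided among them. The 304 genes carry 286 TR numbers, of which 13 occur more than once, in 31 genes. TR153 occurs in 5 genes and TR12558 in 4. TR1590 has 2 genes in the whole table and both are members. TR1590__c2_g1, chosen for its number with its values known, had 220, 253 and 231 TPM in control, 113, 47.3 and 873 in poplar and 845, 623 and 243 in switchgrass. Like TR1590__c1_g1 it was high in the third poplar and the first switchgrass library and low in the second poplar library.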

How the data were processed

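Values for 45286 assembled transcripts were deposited in TPM, in a pair of tables; one carries expected counts in its name, but its columns sum to 1000000 within 0.87. Per the submitters' processing notes RSEM was used. No version of it is given in the sources used here, nor are the names of the assembler and aligner. The design had fixed a count test for a table of counts and limma for TPM, so limma was used. TPM keeps no depth, and no counting interval could be given.

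Isoforms were summed to genes. The comparison of switchgrass with poplar was fitted with limma 3.58.1 (R 4.3.3, intensity trend) on log2(TPM + 1) to all 16 libraries as 6 group means, for the 23981 genes that reached 1 TPM in 3 or more libraries, with Benjamini-Hochberg adjustment and calls at 0.05. Fold changes on this scale understate changes of low genes. The glucose group has 1 library and adds nothing to the spread. The fit was also run on simulated data with independent noise, whose spread was taken without the third maltose library. Those data hold no shift of a whole library, so that run does not vouch for the calls made here.

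Genes are named if they are the 10 highest by mean, the 5 with the lowest highest-over-lowest ratio over 9 or over 15 libraries, the 4 highest or lowest switchgrass fold changes, the 2 on either side of a limit, up to 3 listed at 0, or the 4 of widest isoform movement; others are marked. The genes and the rule were chosen with earlier results of these data known. Alternatives were other limits, pseudocounts, filters, scalings, library subsets and weights, a replicate block and the second table's names.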

Additional observations from a re-analysis of the deposited data

How the results depend on the processing

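The set of 304 genes depends on its limits: a floor of 300 TPM left 185 genes, a ratio of at most 1.5 left 87, plant medians of at least 150 TPM left 89, and median-of-ratios scaling left 199; with the third maltose library required 2 remained in the count, and under the second table's names 0. Median-of-ratios scaling divided the 9 libraries by 1.44 to 1.83, so that values lay lower against a fixed floor. In scaled values 36 of the 304 genes exceeded the 2-fold limit, so the 199 is not a count of genes that stayed within it. Leaving out one library of the 9 gave 304 to 348. Of the 304 genes, 258 to 298 were below control in poplar and 240 to 260 in switchgrass with 1 plant or control library left out. The third poplar library gave the 298. With scaling they numbered 178 and 167. Scaling with maltose replicate 3 left out gave 200 and 178, and names from the second table gave 2 and 1. Shares of all genes tested were not taken for left-out libraries, for scaling without maltose replicate 3 or for the other names. Those counts are therefore given without a reading. For switchgrass against poplar the 6 calls among all genes became 110 with scaling, 30 with no filter, 25 with the plant libraries alone, 26 without the third maltose library, 340 under the second table's names, 801 with weights per library by the gene-by-gene method, 4124 with weights by REML and 271 with scaling and without the third maltose library; the calls among the 304 genes were 10 with the gene-by-gene weights, 93 with REML, 2 in the last of these, and 0 in the other alternatives. REML, the method first run for the planned weights, did not converge, and gene-by-gene weights replaced it after its counts were seen. Leaving out one plant library gave 0 to 24 calls: with poplar replicate 1, 2 or 3 left out they numbered 2, 0 or 17, and with that replicate of switchgrass 11, 9 or 24. The replicate number as a block gave 4 calls; same-numbered plant libraries did not deviate together (correlations -0.08, -0.01 and -0.19; 0 of 6 libraries correlated best with their own number), so the numbers are not taken as pairs. Under the second table's names the log2 fold change turned to 0.016 in TR11915__c1_g1, -0.15 in TR1590__c1_g1 and 0.62 in TR9393__c0_g1. With libraries left out it ran from -2.10 to 0.15 in TR3520__c0_g1 (0.13 without the first poplar library, 0.15 without the first switchgrass library) and from -0.82 to 0.34 in TR8422__c0_g1 (0.34 without the third poplar library). The causes were not tested.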
